A study of Mus musculus with 4 samples.

Results

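Il7r, Il2ra, Il2rb, Il2rg, Crlf2, Il15 and Il15ra encode the receptor chains that read IL-7, IL-2, IL-15 and TSLP, together with the cytokine IL-15 itself. These 7 genes were chosen by name. All 7 were found, each as 1 row among the 32289 genes of the count matrices. The cells came from the mesenteric lymph nodes (mLN) of 12 mice, 15 days old and untreated, of the genotype Gm38411-iCre-hCD2 R26 tdTomato, in which iCre and a human CD2 reporter are carried at Gm38411 and tdTomato is switched on by recombination at R26. Sorting kept tdTomato+ cells with CD11c and MHC-II but without CD3 or B220, and split them into an hCD2+ and an hCD2- fraction. Both fractions came from the same 12 animals, each with its own hashtag antibody, and all cells of both fractions carry both alleles and tdTomato. What the cells share is thus iCre activity at some time, and no cells without it were measured. Each fraction was 1 library, so fraction and library cannot be told apart.

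The common gamma chain, encoded by Il2rg, is a signalling subunit of the receptors for IL-2, IL-4, IL-7, IL-9, IL-15 and IL-21. Il7r encodes the alpha chain of the IL-7 receptor, which also pairs with the product of Crlf2 to form the receptor for TSLP, an epithelial cytokine. Innate lymphocytes of type 3 (ILC3), lymphoid tissue inducer (LTi) cells and naive T cells are known to depend on IL-7. Il2ra encodes CD25, the chain that gives the IL-2 receptor its high affinity and that marks regulatory T cells. Il2rb encodes the beta chain shared by the IL-2 and IL-15 receptors, a chain that natural killer (NK) cells need. Il15ra encodes the chain with which dendritic cells (DCs) and macrophages hold IL-15 on their surface and present it to NK and memory T cells. The gamma chain signals through JAK3, its partner chains through JAK1, and STAT5 is a main transcription factor downstream.

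After filtering, 7099 hCD2+ cells (median 17486 UMIs) and 4762 hCD2- cells (median 23846 UMIs) remained, with 365 to 897 and 234 to 592 cells per mouse. Cells were clustered without the 7 genes and 28 pathway genes, and classes were named from marker genes. The labels call all cells DCs, but ILC3 or LTi-like cells were the largest named class of the hCD2+ fraction (3021 cells, against 234 hCD2- cells) and T cell-like cells that of the hCD2- fraction (366 hCD2+ and 1004 hCD2- cells). The T cell-like class held 311 and 422 CPM of Cd3e in the hCD2+ and hCD2- libraries, although the gate excluded surface CD3. The other classes held 999 and 15 Prdm16 or Aire DC-like, 528 and 935 CCR7 migratory DC-like, 144 and 859 cDC2-like, 88 and 256 cDC1-like, 62 and 392 NK or ILC1-like, 32 and 104 pDC-like and 83 and 40 monocyte or macrophage-like cells, and 1776 and 923 cells stayed unnamed. Levels are UMI counts scaled to CPM, the count per 1e6 UMIs, of a mouse's cells of 1 class and fraction, given as mean ± SD over mice with at least 10 such cells. Where 3 values stand for a group, they are its lowest, median and highest mouse.

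Differences are log2 fold changes ± SE from edgeR's quasi-likelihood test on counts summed per mouse, called at a Benjamini-Hochberg adjusted p under 0.05 over all genes tested. They are scaled with TMM, which CPM are not. The median gene's CPM ratio was -0.43 on the log2 scale in CCR7 over cDC2-like cells, 0.35 in Prdm16 or Aire DC-like over CCR7 cells, -0.19 in Prdm16 or Aire DC-like over ILC3 or LTi-like cells and -0.27 in Aire-high over Prdm16-high cells. In the other comparisons it lay between -0.10 and 0.06. Levels of different genes were not compared.

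The genes lie on 5 chromosomes (mm10, GENCODE M21 gene spans). Il7r is on the minus strand at chr15:9505788-9530176 and Il2rb, on the same chromosome and strand, at chr15:78479256-78495271. Il2rg is at chrX:101264378-101268255 (minus), Crlf2 at chr5:109554709-109558993 (minus) and Il15 at chr8:82331632-82403222 (minus). Il2ra (chr2:11642807-11693193, plus) and Il15ra (chr2:11705290-11734317, plus) are neighbours: 12.1 kb separate the end of Il2ra from the start of Il15ra. Their upstream windows are shown because these 2 neighbours had opposite levels in the clusters of CCR7 migratory DC-like cells described further on. Each window runs from base 250 to base 11 before the RefSeq start (GRCm38.p6, chr2:11642542-11642781 for Il2ra and chr2:11705043-11705282 for Il15ra, plus strand), and capitals mark a match to a searched motif.
Il2ra: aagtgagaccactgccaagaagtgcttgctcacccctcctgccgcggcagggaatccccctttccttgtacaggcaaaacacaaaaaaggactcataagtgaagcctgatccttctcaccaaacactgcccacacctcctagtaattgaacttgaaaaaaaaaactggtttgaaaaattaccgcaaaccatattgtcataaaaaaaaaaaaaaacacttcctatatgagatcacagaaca
Il15ra: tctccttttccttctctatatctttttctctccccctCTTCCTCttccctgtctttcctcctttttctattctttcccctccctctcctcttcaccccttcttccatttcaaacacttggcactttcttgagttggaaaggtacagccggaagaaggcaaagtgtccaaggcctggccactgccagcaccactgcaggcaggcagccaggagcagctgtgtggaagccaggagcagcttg
The Il15ra window holds 1 match, CTTCCTC, the reverse complement of the PU.1-type letters GAGGAAG, at bases 213 to 207 before the start. The Il2ra window held no match to any of the 6 motifs. Sequences were found for 5 of the 7 genes, and not for Il2rb and Il15. On both strands, the searched letters and the share of 32851 mouse windows of the same length that hold them were TTCNNNGAA (GAS, bound by STAT dimers) in 6.77%, a pair of GAAA with NN between them (ISRE-like) in 2.87%, TGTGGT (RUNX) in 13.6%, AGGTCA (ROR) in 13.5%, TGANTCA (AP-1) in 6.58% and GAGGAAG in 10.01%. The Il7r window held 1 GAS match (bases 142 to 134 before the start), Il2rg 1 RUNX match (227 to 222), and Crlf2 1 RUNX (236 to 231) and 1 PU.1-type match (80 to 74). A second annotated start of Il15ra had an AP-1 match at bases 30 to 24. These matches describe letters only.

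Il7r was highest in ILC3 or LTi-like cells of both fractions, and cDC1-like cells held next to none. It was at intermediate levels in T cell-like, pDC-like, NK or ILC1-like, CCR7 migratory DC-like and Prdm16 or Aire DC-like cells, and lower in cDC2-like cells. In hCD2+ cells it was at 3073 ± 205 CPM in ILC3 or LTi-like cells (n = 12 mice), 313 ± 195 in T cell-like (n = 11), 222 ± 39.7 in CCR7 migratory DC-like (n = 12), 179.5 ± 33.5 in Prdm16 or Aire DC-like (n = 12), 80.1 ± 57.7 in cDC2-like (n = 7) and 3.57 ± 3.60 in cDC1-like cells (n = 3). Only the T cell-like and CCR7 levels, neighbours in that order, differed by less than the larger of their SDs. In hCD2- cells it was at 2832 ± 316 CPM in ILC3 or LTi-like (n = 11), 487 ± 88.9 in T cell-like (n = 12), 375 ± 121 in pDC-like (n = 5), 328 ± 102 in NK or ILC1-like (n = 12), 229.8 ± 27.2 in CCR7 (n = 12), 38.3 ± 14.6 in cDC2-like (n = 12) and 2.63 ± 2.63 in cDC1-like cells (n = 11). There the T, pDC, NK and CCR7 levels formed a run in which no neighbours differed beyond their SD. With each cell thinned to 5000 UMIs, 99.7% (95% interval 99.4 to 99.8%) of 2987 hCD2+ ILC3 or LTi-like cells held an Il7r UMI, against 2.41% (95% interval 0.663 to 8.37%) of 83 hCD2+ cDC1-like cells (Wilson intervals, counting error only). Unthinned, these shares were 99.8% and 17.05%. Thinning left out 34 and 5 cells. In the hCD2- library 0 of 251 thinned cDC1-like cells held one, which allows a share of up to 1.20%. Pooled cDC1-like cells held 16.3 CPM in the hCD2+ and 2.39 CPM in the hCD2- library. Free RNA of the droplets could give up to 15.7 and 4.60 CPM there. The hCD2- level is thus read as background, while the pooled hCD2+ level lay just above its bound.

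Il2ra was highest in T cell-like, ILC3 or LTi-like and CCR7 cells among the classes with at least 3 mice. In hCD2+ cells it was at 385 ± 255 CPM in T cell-like, 382 ± 34.2 in ILC3 or LTi-like, 117 ± 42.9 in CCR7, 20.9 ± 20.2 in cDC2-like, 6.98 ± 5.82 in Prdm16 or Aire DC-like and 2.26 ± 2.72 in cDC1-like cells. The T cell-like and ILC3 or LTi-like levels did not differ beyond the wide spread of T cells, nor did neighbours among the last 3 levels. In hCD2- cells the order was ILC3 or LTi-like at 298 ± 99.2 CPM, CCR7 at 106 ± 34.1, T cell-like at 76.5 ± 54.6, NK or ILC1-like at 40.4 ± 51.3, pDC-like at 9.61 ± 7.32, cDC2-like at 0.965 ± 1.59 and cDC1-like at 0.545 ± 0.916. From CCR7 to pDC-like cells each neighbour was within the larger SD. An Il2ra UMI was seen in 29.4% (95% interval 25.6 to 33.5%) of 504 thinned hCD2+ CCR7 cells, against 1.20% (95% interval 0.213 to 6.51%) of 83 hCD2+ cDC1-like cells (unthinned 50.2% and 5.68%, 24 and 5 cells left out). cDC1-like cells of both fractions and hCD2- cDC2-like cells lay near or under the free-RNA bound. Monocyte or macrophage-like cells of the hCD2+ library held 57.01 CPM over all 83 cells, against a bound of 5.67 CPM. Only 2 mice had at least 10 of these cells, at 1.81 and 38.1 CPM. Prdm16 or Aire DC-like cells held 6.59 CPM over all their cells, against a bound of 2.96 CPM.

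Il2rb was highest in lymphoid classes. In hCD2- cells NK or ILC1-like cells held 626 ± 65.5 CPM, ILC3 or LTi-like cells 297 ± 53.7, T cell-like cells 123 ± 25.5 and pDC-like cells 14.7 ± 28.3, and each of the first 3 stood above the next beyond the larger SD. The cDC2-like, cDC1-like and CCR7 classes held 2.51 ± 1.97, 2.20 ± 1.0002 and 2.10 ± 1.42 CPM, which did not differ beyond their SDs and were close to the free-RNA bound. In hCD2+ cells ILC3 or LTi-like cells held 264 ± 16.8 CPM, T cell-like cells 132 ± 22.9, Prdm16 or Aire DC-like cells 13.05 ± 3.62, cDC2-like cells 10.7 ± 8.51, CCR7 cells 3.04 ± 3.35 and cDC1-like cells 1.08 ± 0.948. Among these DC classes no neighbours differed beyond their SD. A thinned Il2rb UMI was seen in 93.9% (95% interval 91.1 to 95.9%) of 379 hCD2- NK or ILC1-like cells, against 0.792% (95% interval 0.384 to 1.63%) of 884 hCD2- CCR7 cells (unthinned 98.7% and 4.92%, 13 and 51 cells left out).

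Il2rg was seen in every named class and was lowest in cDC1-like cells of both fractions. Levels in hCD2+ cells were 486 ± 21.05 CPM in ILC3 or LTi-like, 204 ± 28.7 in T cell-like, 184 ± 25.1 in cDC2-like, 138 ± 22.4 in CCR7, 104 ± 9.25 in Prdm16 or Aire DC-like and 18.8 ± 11.4 in cDC1-like cells. Of these neighbours, T cell-like and cDC2-like levels did not differ beyond their SDs. Levels in hCD2- cells were 479 ± 80.7 CPM in ILC3 or LTi-like, 254 ± 30.1 in NK or ILC1-like, 249.6 ± 14.6 in T cell-like, 194 ± 15.01 in cDC2-like, 142 ± 8.61 in CCR7, 139 ± 32.7 in pDC-like and 24.9 ± 11.8 in cDC1-like cells. NK and T cells, and CCR7 and pDC-like cells, did not differ beyond their SDs.

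Crlf2 had the flattest profile of the 7 genes over classes, and CCR7 cells stood at its low end in both fractions. In hCD2+ cells it ran from 35.8 ± 7.33 CPM in cDC1-like over 35.5 ± 7.25 in cDC2-like, 32.8 ± 4.90 in Prdm16 or Aire DC-like, 32.5 ± 9.41 in T cell-like and 26.2 ± 3.48 in ILC3 or LTi-like to 15.7 ± 4.34 in CCR7 cells. Only the last step went beyond the larger SD. In hCD2- cells it ran from 34.9 ± 6.29 CPM in pDC-like over 34.8 ± 3.77 in cDC1-like, 31.5 ± 2.92 in cDC2-like, 29.6 ± 6.18 in NK or ILC1-like, 22.7 ± 5.49 in T cell-like and 21.1 ± 9.45 in ILC3 or LTi-like to 12.97 ± 3.06 in CCR7 cells. There only the step between NK and T cells went beyond the larger SD. Monocyte or macrophage-like cells, with too few cells per mouse for a mean, held 64.7 CPM over 83 hCD2+ cells and 46.9 CPM over 40 hCD2- cells.

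Il15 and Il15ra were both highest in CCR7 migratory DC-like cells and otherwise differed in their order. Il15 in hCD2+ cells was at 289 ± 59.6 CPM in CCR7, 77.2 ± 14.9 in Prdm16 or Aire DC-like, 41.3 ± 20.6 in cDC1-like, 13.3 ± 9.29 in cDC2-like, 11.1 ± 1.94 in ILC3 or LTi-like and 2.45 ± 3.18 in T cell-like cells. Only the cDC2-like and ILC3 levels were within the larger SD of each other. In hCD2- cells it was at 285 ± 44.9 CPM in CCR7, 37.7 ± 25.8 in cDC1-like, 13.3 ± 7.56 in cDC2-like, 12.2 ± 9.35 in ILC3 or LTi-like, 11.999 ± 5.21 in NK or ILC1-like, 2.56 ± 1.24 in T cell-like and 1.55 ± 2.12 in pDC-like cells. The 4 classes from cDC1-like to NK or ILC1-like did not differ from their neighbours beyond the larger SD. Neither did T cell-like and pDC-like cells, which lay near or under the free-RNA bound. Il15ra in hCD2+ cells was at 283 ± 40.4 CPM in CCR7 and between 6.60 ± 2.61 (Prdm16 or Aire DC-like) and 15.9 ± 14.5 CPM (T cell-like) in the other 5 classes. None of these differed from its neighbour beyond the larger SD. In hCD2- cells it was at 233 ± 42.4 CPM in CCR7, 20.3 ± 6.07 in NK or ILC1-like, 12.3 ± 5.62 in T cell-like, 10.3 ± 6.11 in ILC3 or LTi-like, 8.30 ± 3.98 in cDC1-like, 6.04 ± 3.66 in cDC2-like and 0.855 ± 1.91 in pDC-like cells. An Il15 UMI was seen in 66.5% (95% interval 62.2 to 70.5%) of thinned hCD2+ CCR7 cells, against 0.3% (95% interval 0.053 to 1.68%) of hCD2+ T cell-like cells. For Il15ra these shares were 64.9% (95% interval 60.6 to 68.9%) and 4.50% (95% interval 2.75 to 7.30%). Unthinned, they were 91.1% against 4.10% for Il15 and 88.3% against 18.3% for Il15ra, and thinning left out 24 and 33 cells.

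**Figure D1:**
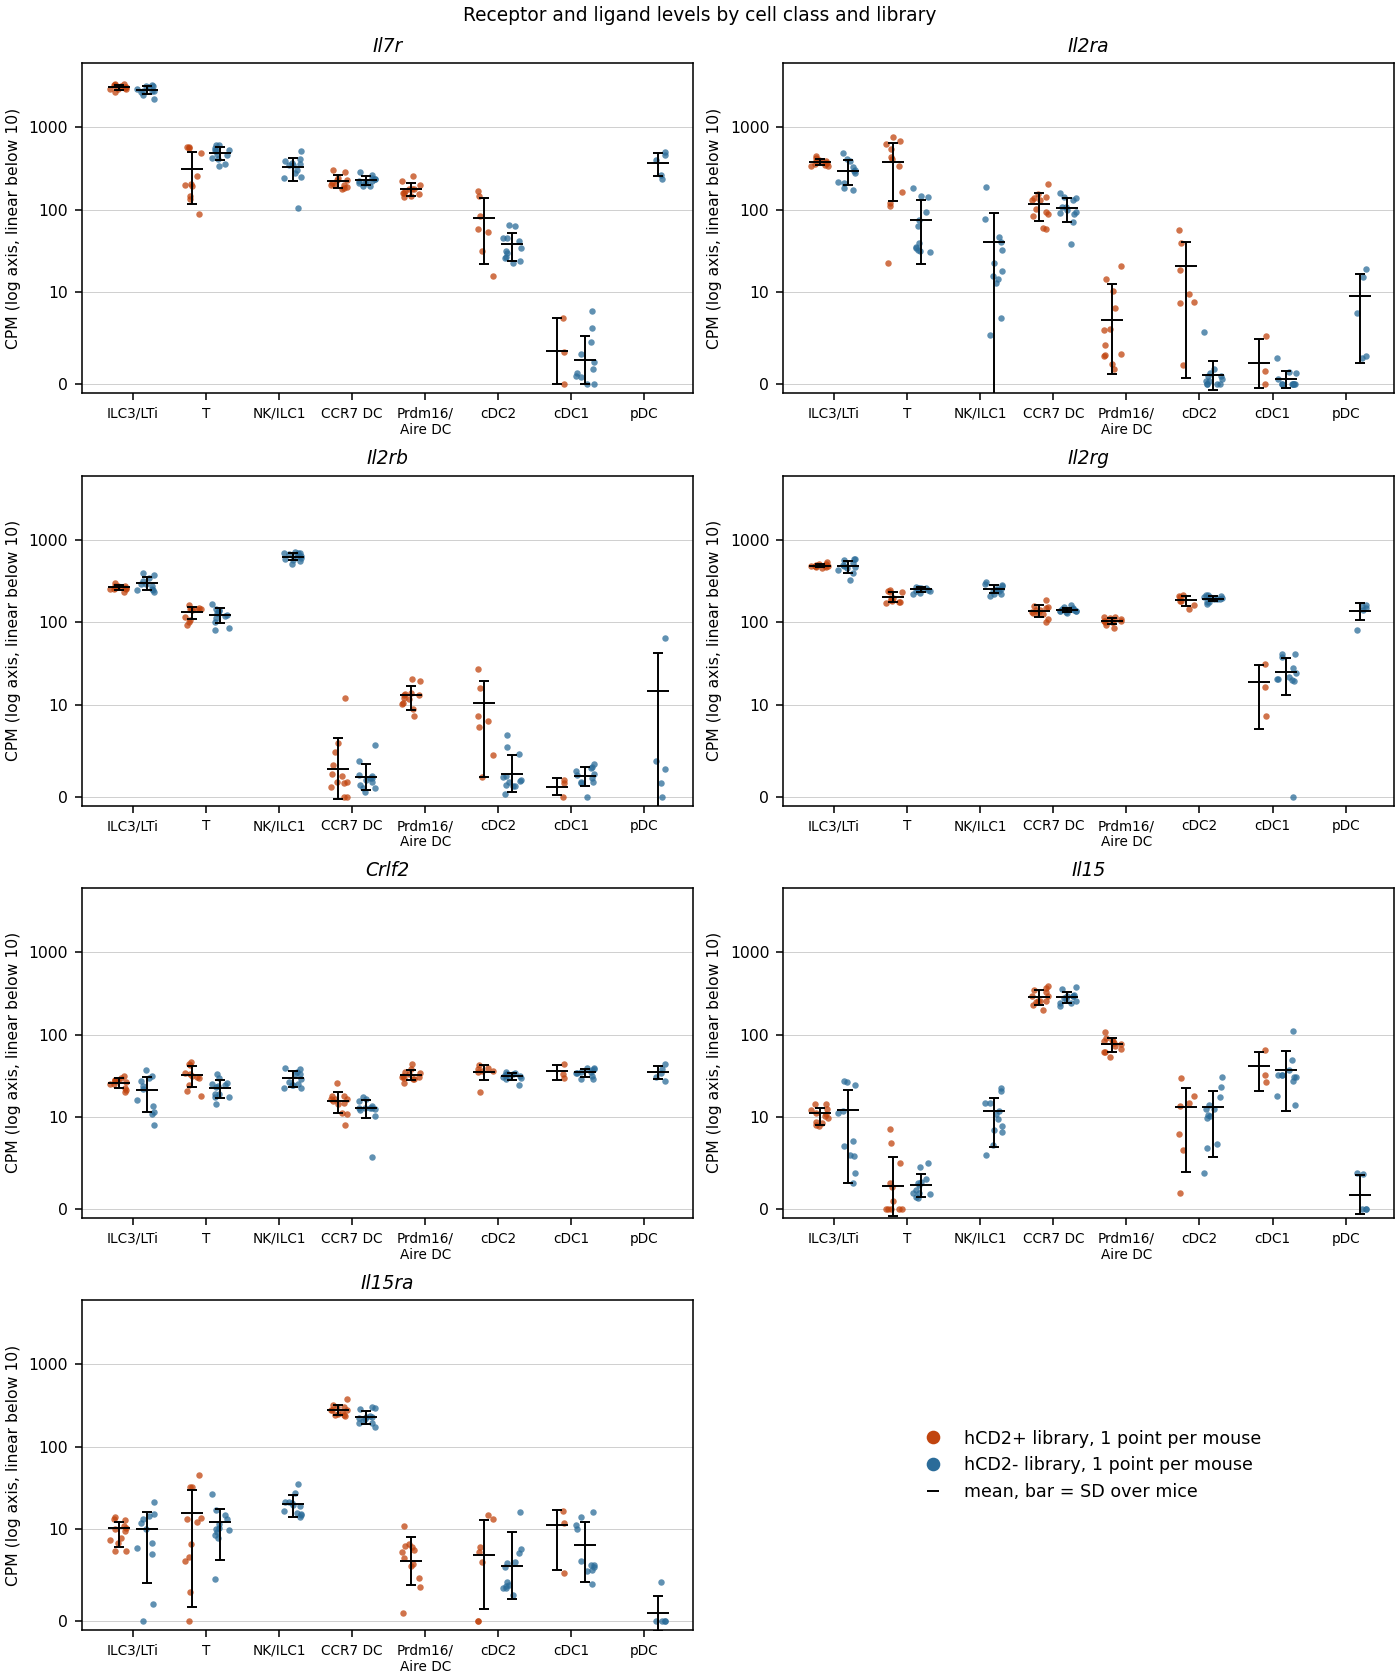
Level of each of the 7 genes in CPM (log axis, linear below 10) by class, with 1 point per mouse, hCD2+ left of hCD2-, and the mean ± SD in black. Il7r stands highest in ILC3 or LTi-like cells of both fractions (3073 ± 205 in hCD2+ and 2832 ± 316 in hCD2-), and Il15 and Il15ra are highest in CCR7 migratory DC-like cells.

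Lymphoid classes were compared in the hCD2- fraction, which held enough mice of each. ILC3 or LTi-like cells carried more Il7r, Il2ra and Il2rg than NK or ILC1-like cells and less Il2rb. Il7r was at 2230.2, 2787 and 3222 CPM in ILC3 or LTi-like cells (lowest, median and highest of 11 mice), against 106, 349 and 511 CPM in NK or ILC1-like cells (12 mice). The ranges did not overlap and all 11 mice with both classes were higher in ILC3 or LTi-like cells (log2 fold change 3.16 ± 0.15, adjusted p = 7.6e-18). Il2rb was at 233, 289 and 393 CPM in ILC3 or LTi-like cells, against 509, 628 and 718 CPM in NK or ILC1-like cells, lower in 11 of 11 mice without overlap (log2 fold change -1.03 ± 0.09, adjusted p = 1.2e-11). Il2rg was higher in 11 of 11 mice (log2 fold change 0.96 ± 0.09, adjusted p = 2.0e-10), and Il2ra in 10 of 11 (log2 fold change 2.98 ± 0.35, adjusted p = 1.7e-08) with 1 NK sum at 189.6 CPM inside the ILC3 range of 173 to 484 CPM. Crlf2 did not pass the test (log2 fold change -0.42 ± 0.20, adjusted p = 0.065), and Il15 and Il15ra were too low to be tested. Of the 5 tested genes 4 were called, beside 56.9% of all genes tested.

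Set against T cell-like cells, ILC3 or LTi-like cells of the hCD2- fraction were higher in 4 of 5 tested genes, beside 65.5% of all genes called in either direction. Il7r was at 2230.2, 2787 and 3222 CPM in ILC3 or LTi-like cells, against 344, 496 and 607 CPM in T cell-like cells (log2 fold change 2.61 ± 0.09, adjusted p = 2.8e-21, 11 of 11 mice, no overlap). Il2rb was at 233, 289 and 393 CPM in ILC3 or LTi-like cells, against 80.8, 125 and 168 CPM in T cell-like cells (log2 fold change 1.33 ± 0.11, adjusted p = 6.0e-12, 11 of 11, no overlap). Il2rg was also higher in 11 of 11 without overlap (log2 fold change 1.01 ± 0.08, adjusted p = 1.1e-12), and Il2ra in 11 of 11 with it (log2 fold change 2.05 ± 0.28, adjusted p = 1.6e-07). Crlf2 did not pass (log2 fold change -0.05 ± 0.20, adjusted p = 0.84). NK or ILC1-like cells against T cell-like cells were set apart by Il2rb, at 509, 628 and 718 CPM in NK or ILC1-like cells, against 80.8, 125 and 168 CPM in T cell-like cells (log2 fold change 2.36 ± 0.09, adjusted p = 6.3e-20, 12 of 12, no overlap). Il15ra was higher in 10 of 12 mice (log2 fold change 0.75 ± 0.20, adjusted p = 0.0027). Il7r was lower in 10 of 12 (log2 fold change -0.56 ± 0.15, adjusted p = 0.0023). Crlf2 was higher in 8 of 12 (log2 fold change 0.37 ± 0.14, adjusted p = 0.024), a call lost without the low-count filter (log2 fold change 0.32, adjusted p = 0.082). Il2rg did not pass (log2 fold change 0.04 ± 0.06, adjusted p = 0.66). Il2ra passed with the mouse as a block (log2 fold change -1.12, adjusted p = 0.0075) but not without it (log2 fold change -0.95 ± 0.42, adjusted p = 0.062). In this comparison 4 of 6 tested genes were called, beside 49.1% of all genes.

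The NK or ILC1-like class of the hCD2- library held 519 to 804 CPM of the T cell marker list (8 genes summed, per mouse) and 424 to 856 CPM of the ILC3 or LTi list (10 genes). Their part in these results was not tested. The hCD2+ fraction gave 62 NK or ILC1-like cells, of which 2 mice reached 10 cells, so no test was made. Their pooled Il7r was 1372 CPM, against 322 CPM in the hCD2- cells of the class, and Il2rb was 626 CPM in the hCD2+ and 626 CPM in the hCD2- cells. The summed ILC3 or LTi list was at 902 to 1767 CPM in hCD2+ and 424 to 856 CPM in hCD2- mice, with Il17f at 0 in the hCD2+ cells. At a finer clustering the class name went to a cluster led by Klra4 and Klra8 and another led by Cd200r2 and Hmgcll1. The Klra4 cluster held 27 hCD2+ and 323 hCD2- cells, and the Cd200r2 cluster 29 hCD2+ and 64 hCD2- cells. The part of this mix in the Il7r levels of the class was not tested.

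Among dendritic cells, CCR7 migratory DC-like cells of the hCD2- fraction differed from cDC2-like cells in 5 of 6 tested genes, beside 78.4% of all genes. Il15 was at 222, 284 and 374 CPM in CCR7 cells, against 3.904, 11.5 and 30.8 CPM in cDC2-like cells (log2 fold change 4.89 ± 0.18, adjusted p = 3.5e-20). Il15ra was at 173, 227 and 306 CPM in CCR7 cells, against 2.84, 5.10 and 16.4 CPM in cDC2-like cells (log2 fold change 5.75 ± 0.16, adjusted p = 4.2e-23). Il2ra was at 38.7, 103 and 162 CPM in CCR7 cells, against 0, 0.481 and 5.71 CPM in cDC2-like cells (log2 fold change 6.73 ± 0.32, adjusted p = 8.4e-18). Each of these was higher in 12 of 12 mice with no overlap, as was Il7r (193, 224 and 289.6 CPM in CCR7 cells and 22.7, 33.2 and 65.6 CPM in cDC2-like cells, log2 fold change 2.95 ± 0.14, adjusted p = 1.3e-17). Crlf2 was lower in 12 of 12 mice without overlap (5.70, 12.9 and 17.7 CPM in CCR7 cells, against 24.3, 31.6 and 35.6 CPM in cDC2-like cells, log2 fold change -0.85 ± 0.10, adjusted p = 5.4e-09). Il2rg was at 131, 139 and 161 CPM in CCR7 cells, against 168, 194 and 213 CPM in cDC2-like cells, lower in CPM in 12 of 12 mice. It was not called on the TMM scale (log2 fold change -0.07 ± 0.05, adjusted p = 0.24) but was called with cells thinned to 5000 UMIs (log2 fold change -0.32, adjusted p = 0.0027). Il2rb was not tested.

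cDC1-like cells against cDC2-like cells of the hCD2- fraction were called in 3 of 4 tested genes, beside 59.7% of all genes. Il15 was at 14.1, 32.4 and 111 CPM in cDC1-like cells (11 mice), against 3.904, 11.5 and 30.8 CPM in cDC2-like cells (12 mice), higher in 11 of 11 with overlapping ranges (log2 fold change 1.51 ± 0.30, adjusted p = 9.2e-05). Il2rg was at 0, 21.8 and 41.03 CPM in cDC1-like cells, against 168, 194 and 213 CPM in cDC2-like cells, lower in 11 of 11 without overlap (log2 fold change -2.87 ± 0.16, adjusted p = 3.5e-15). Il7r, at background in cDC1-like cells, was lower in 11 of 11 without overlap (log2 fold change -3.89 ± 0.35, adjusted p = 1.2e-10; log2 fold change -2.32, adjusted p = 6.1e-07 at a finer clustering). Crlf2 did not pass (log2 fold change 0.18 ± 0.07, adjusted p = 0.094).

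Prdm16 or Aire DC-like cells, a hCD2+ class marked by the transcription factors Prdm16 and Aire, had less of both IL-15 genes than CCR7 cells of the same fraction. Il15ra was at 0.842, 7.24 and 10.97 CPM in Prdm16 or Aire cells, against 237, 281 and 376 CPM in CCR7 cells (log2 fold change -5.66 ± 0.15, adjusted p = 1.8e-23). Il15 was at 52.9, 78.8 and 107 CPM in Prdm16 or Aire cells, against 196, 275 and 391 CPM in CCR7 cells (log2 fold change -2.18 ± 0.11, adjusted p = 8.1e-17). Il2ra was at 1.65, 5.08 and 21.04 CPM in Prdm16 or Aire cells, against 59.1, 117 and 205 CPM in CCR7 cells (log2 fold change -4.38 ± 0.27, adjusted p = 1.0e-14). All 3 were lower in 12 of 12 mice without overlap. Crlf2 was at 26.003, 31.3 and 44.6 CPM in Prdm16 or Aire cells, against 9.10, 16.2 and 25.9 CPM in CCR7 cells, higher in 12 of 12 without overlap (log2 fold change 0.76 ± 0.12, adjusted p = 1.4e-06). Il2rb was higher in 12 of 12 (log2 fold change 1.82 ± 0.29, adjusted p = 2.5e-06) between low levels. Il2rg (log2 fold change -0.69 ± 0.07, adjusted p = 6.7e-10) and Il7r (log2 fold change -0.59 ± 0.10, adjusted p = 2.5e-06) were lower in 10 of 12 each. The class joins clusters that lay on both sides of CCR7 cells in Il7r: the Aire-high cluster averaged 473 CPM and the Prdm16-high cluster 77.7 CPM, against 222 CPM in CCR7 cells. The lower Il7r of the class was thus not seen in its Aire-high cluster. In Il15 the mice of the Aire-high cluster, given further on, reached into the CCR7 range, and those of the Prdm16-high cluster did not. The Il7r call was lost with cells thinned to 5000 UMIs (log2 fold change -0.27, adjusted p = 0.058). All 7 genes were called here, beside 75.2% of all genes.

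Against ILC3 or LTi-like cells, the other large hCD2+ class, Prdm16 or Aire DC-like cells were likewise called in all 7 genes, beside 82.4% of all genes. Il7r was at 143, 173 and 256 CPM in Prdm16 or Aire cells, against 2674, 3082 and 3331 CPM in ILC3 or LTi-like cells (log2 fold change -3.93 ± 0.08, adjusted p = 3.4e-27). Il2ra (log2 fold change -5.67 ± 0.20, adjusted p = 4.5e-21), Il2rb (log2 fold change -4.19 ± 0.09, adjusted p = 1.1e-26) and Il2rg (log2 fold change -2.06 ± 0.04, adjusted p = 2.8e-26) were lower too, each in 12 of 12 mice without overlap, as for Il7r. Il15 was at 52.9, 78.8 and 107 CPM in Prdm16 or Aire cells, against 9.001, 10.7 and 14.4 CPM in ILC3 or LTi-like cells, higher in 12 of 12 without overlap (log2 fold change 2.96 ± 0.11, adjusted p = 8.5e-21). Crlf2 was higher in 11 of 12 mice (log2 fold change 0.48 ± 0.08, adjusted p = 4.5e-06) and Il15ra lower in 10 of 12 (log2 fold change -0.43 ± 0.19, adjusted p = 0.035). The Prdm16 or Aire class held 677 to 864 CPM of the ILC3 or LTi marker list, whose part in the receptor levels was not tested.

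CCR7 migratory DC-like cells fell into 2 clusters that split the neighbours Il2ra and Il15ra. Cluster 11 led with Thbs4, Eva1a and Spock1 and had the higher Il12b, and cluster 1 led with Kirrel, Dkk2 and St18 and had the higher Ccl17. The hCD2- library held 144 cells of cluster 11 and 791 of cluster 1. The test used 89 cells of cluster 11 from 5 mice and 791 of cluster 1 from 12 mice. In these mice Il2ra was at 3.11, 7.003 and 20.3 CPM in cluster 11, against 46.6, 125 and 177 CPM in cluster 1 (log2 fold change -3.88 ± 0.39, adjusted p = 4.7e-08). Il15ra was at 351, 446 and 551 CPM in cluster 11, against 133, 171 and 269 CPM in cluster 1 (log2 fold change 1.38 ± 0.14, adjusted p = 3.3e-08). Il15 was at 353, 513 and 846 CPM in cluster 11, against 167, 242 and 288 CPM in cluster 1 (log2 fold change 1.30 ± 0.15, adjusted p = 3.8e-07). No range overlapped, and all 5 mice with both clusters showed each direction. Cluster 11 was thus lower in the IL-2 receptor alpha chain and higher in IL-15 and its presenting chain, with 3 of 6 tested genes called beside 40.4% of all genes. Il7r (log2 fold change -0.28 ± 0.14, adjusted p = 0.13), Il2rg (log2 fold change 0.04 ± 0.11, adjusted p = 0.79) and Crlf2 (log2 fold change -0.36 ± 0.28, adjusted p = 0.34) did not pass. Il7r passed when mouse 1 was left out (log2 fold change -0.52, adjusted p = 0.0033).

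The hCD2+ library, tested after the hCD2- values were seen, had 198 cells of cluster 11 and 330 of cluster 1. Of these, 183 and 330 lay in the mice tested. Il2ra was at 2.25, 12.4 and 143 CPM in cluster 11 (10 mice), against 85.97, 166 and 351 CPM in cluster 1 (12 mice), lower in 9 of 10 mice with overlap (log2 fold change -2.57 ± 0.40, adjusted p = 6.2e-06). The overlap came from 1 mouse at 143 CPM in cluster 11, while its other 9 mice lay at or under 56.7 CPM. Il15ra was at 249.8, 409 and 582 CPM in cluster 11, against 142, 203 and 322 CPM in cluster 1, higher in 10 of 10 with overlap (log2 fold change 0.95 ± 0.13, adjusted p = 1.4e-06). Il15 was at 252, 322 and 541 CPM in cluster 11, against 136, 238 and 348 CPM in cluster 1, higher in 9 of 10 with overlap (log2 fold change 0.49 ± 0.14, adjusted p = 0.006). Il7r did not pass (log2 fold change -0.31 ± 0.15, adjusted p = 0.079), but did with the mouse as a block (log2 fold change -0.37, adjusted p = 0.047). Il2rg (log2 fold change -0.12 ± 0.10, adjusted p = 0.36) and Crlf2 (log2 fold change 0.04 ± 0.26, adjusted p = 0.93) did not. The 3 calls stand beside 45.1% of all genes. Both libraries hold the same 12 mice, so they are not independent animals.

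The unnamed cluster 13 (221 hCD2+ and 9 hCD2- cells, led by Gm33819, AU015836 and Gm49272) carried both CCR7 and Prdm16 or Aire markers. Its mice held 9965 to 13207 CPM of the CCR7 list and 1402 to 1994 CPM of the Prdm16 or Aire list. Chosen after its values were seen, it was compared with hCD2+ CCR7 cells. The 8 mice tested held 190 of its hCD2+ cells. Il2ra was at 188, 335 and 484 CPM in cluster 13 (8 mice), against 59.1, 117 and 205 CPM in CCR7 cells (12 mice), higher in 8 of 8 with overlap (log2 fold change 1.49 ± 0.19, adjusted p = 3.3e-07). Il15ra was at 77.03, 108 and 153 CPM in cluster 13, against 237, 281 and 376 CPM in CCR7 cells, lower in 8 of 8 without overlap (log2 fold change -1.39 ± 0.11, adjusted p = 1.4e-10). Il2rg was at 17.6, 60.4 and 75.3 CPM in cluster 13, against 100.1, 137 and 186 CPM in CCR7 cells, lower in 8 of 8 without overlap (log2 fold change -1.32 ± 0.16, adjusted p = 1.2e-07). Il7r was higher in 6 of 8 (log2 fold change 0.36 ± 0.12, adjusted p = 0.013), a call lost with thinned cells (log2 fold change 0.35, adjusted p = 0.075), and Il15 did not pass (log2 fold change 0.10 ± 0.13, adjusted p = 0.56). Of 6 tested genes 4 were called, beside 49.9% of all genes.

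**Figure D2:**
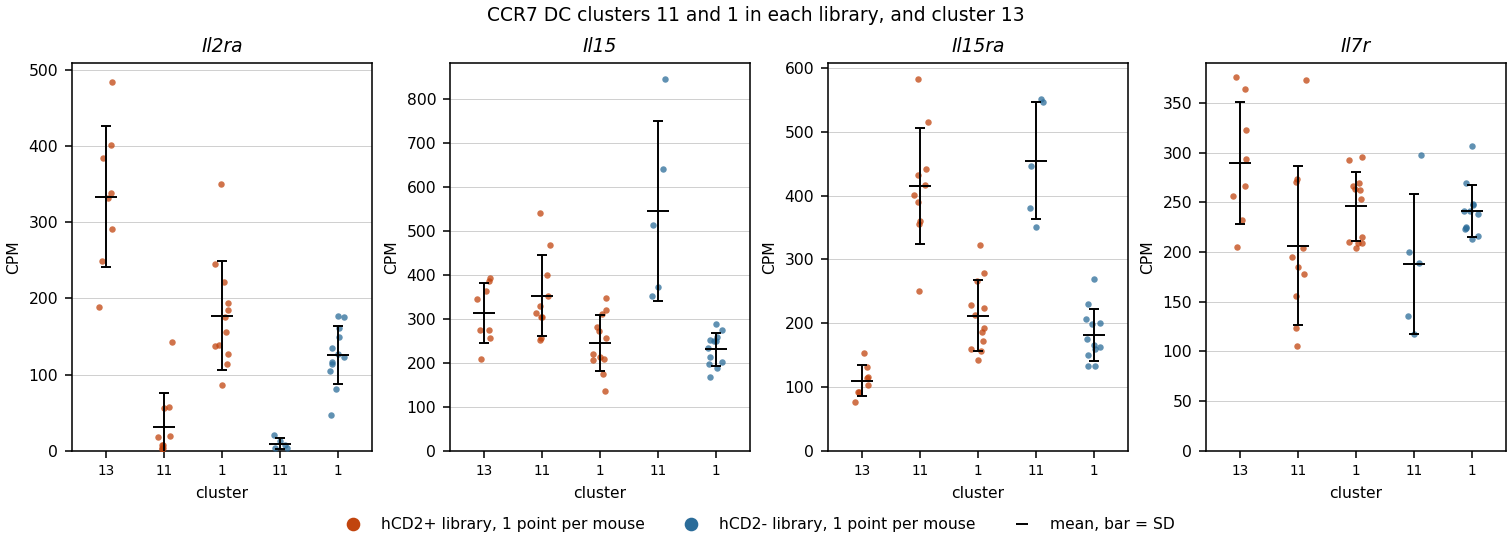
Il2ra, Il15, Il15ra and Il7r in CPM in cluster 13 and CCR7 clusters 11 and 1, with 1 point per mouse, hCD2+ columns left of hCD2- columns and the mean ± SD in black. Il2ra is low in cluster 11 (median 12.4 CPM in hCD2+ and 7.003 CPM in hCD2- mice) where Il15ra is high (medians 409 and 446 CPM).

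Within the Prdm16 or Aire DC-like class of the hCD2+ library, Il7r and Il15 were higher in the cluster with the highest Aire than in the cluster with the highest Prdm16. Il7r was at 382, 467 and 613 CPM in the Aire-high cluster 12 (313 cells), against 32.6, 78.3 and 110.1 CPM in the Prdm16-high cluster 6 (686 cells; log2 fold change 2.84 ± 0.12, adjusted p = 4.5e-19). Il15 was at 117, 184 and 272 CPM in the Aire-high cluster, against 25.003, 35.6 and 63.96 CPM in the Prdm16-high cluster (log2 fold change 2.51 ± 0.14, adjusted p = 1.7e-16). Both were higher in 12 of 12 mice with no overlap. Il2rg was at 44.8, 73.01 and 105 CPM in the Aire-high cluster, against 93.7, 114 and 133 CPM in the Prdm16-high cluster, lower in 11 of 12 with overlap (log2 fold change -0.39 ± 0.10, adjusted p = 7.6e-04). Crlf2 (log2 fold change -0.15 ± 0.13, adjusted p = 0.29) and Il2rb (log2 fold change -0.30 ± 0.23, adjusted p = 0.25) did not pass. Of 5 tested genes 3 were called, beside 68.3% of all genes.

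**Figure D3:**
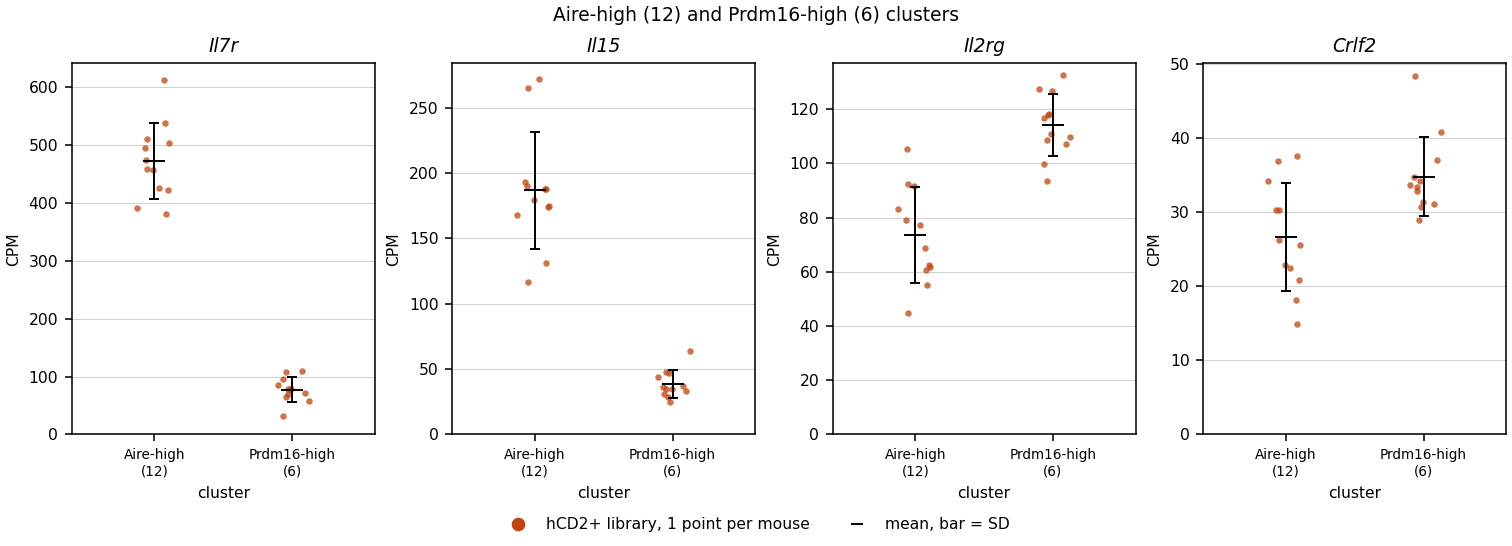
Il7r, Il15, Il2rg and Crlf2 in CPM in the Aire-high (12) and Prdm16-high (6) clusters of hCD2+ cells, with 1 point per mouse and the mean ± SD in black. Il7r ranges from 382 to 613 CPM in the Aire-high cluster, above all Prdm16-high mice (32.6 to 110.1 CPM).

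ILC3 or LTi-like cells of the hCD2+ library split on Il2ra. Cluster 4 (led by Gm32554, 1700003C15Rik and Sema3d) held 146, 207 and 242 CPM of Il2ra, against 377, 435 and 503 CPM in cluster 0 (led by Tdrd9, BC018473 and Fam184b). All 12 mice were lower in cluster 4 and no values overlapped (log2 fold change -1.14 ± 0.07, adjusted p = 2.8e-13), in a comparison chosen after the values were seen. Il2rg was lower in 12 of 12 mice with overlapping ranges (405, 436 and 471 CPM in cluster 4, against 461, 495 and 541 CPM in cluster 0, log2 fold change -0.16 ± 0.04, adjusted p = 0.0012). Il15, low in both, was lower in 10 of 12 (log2 fold change -0.48 ± 0.18, adjusted p = 0.038). Il7r was at 2795, 3146 and 3470.1 CPM in cluster 4 and 2736, 3124 and 3556 CPM in cluster 0 and did not pass (log2 fold change 0.03 ± 0.04, adjusted p = 0.54). Neither did Il2rb (log2 fold change -0.12 ± 0.06, adjusted p = 0.12), Crlf2 or Il15ra. Of 7 tested genes 3 were called, beside 30.9% of all genes.

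Cluster 0, which held the highest summed Ncr1, Tbx21 and Cxcr6 of the ILC3 clusters, was also set against cluster 18, which held the highest summed Ccr6 and Cxcr5 and led with Iigp1, Gm830 and Serpina3f. Cluster 18 reached 10 cells in 4 mice only. Il7r was at 2736, 3124 and 3556 CPM in cluster 0, against 1652, 2183 and 2596 CPM in cluster 18, higher in 4 of 4 mice without overlap (log2 fold change 0.51 ± 0.07, adjusted p = 2.9e-05). Il15 was at 7.38, 11.1 and 15.1 CPM in cluster 0, against 29.4, 33.02 and 38.4 CPM in cluster 18, lower in 4 of 4 without overlap (log2 fold change -1.67 ± 0.19, adjusted p = 1.9e-06), a call lost with thinned cells (log2 fold change -1.23, adjusted p = 0.16). Il2rg was lower in 4 of 4 without overlap (log2 fold change -0.29 ± 0.05, adjusted p = 9.4e-04), lost with the mouse as a block (log2 fold change -0.28, adjusted p = 0.1) and with thinned cells. Il2ra (log2 fold change -0.07 ± 0.13, adjusted p = 0.83) and Il2rb (log2 fold change -0.14 ± 0.09, adjusted p = 0.39) did not pass. Of 7 tested genes 3 were called, beside 8.82% of all genes (929 genes, 367 with the block and 601 without mouse 9).

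**Figure D4:**
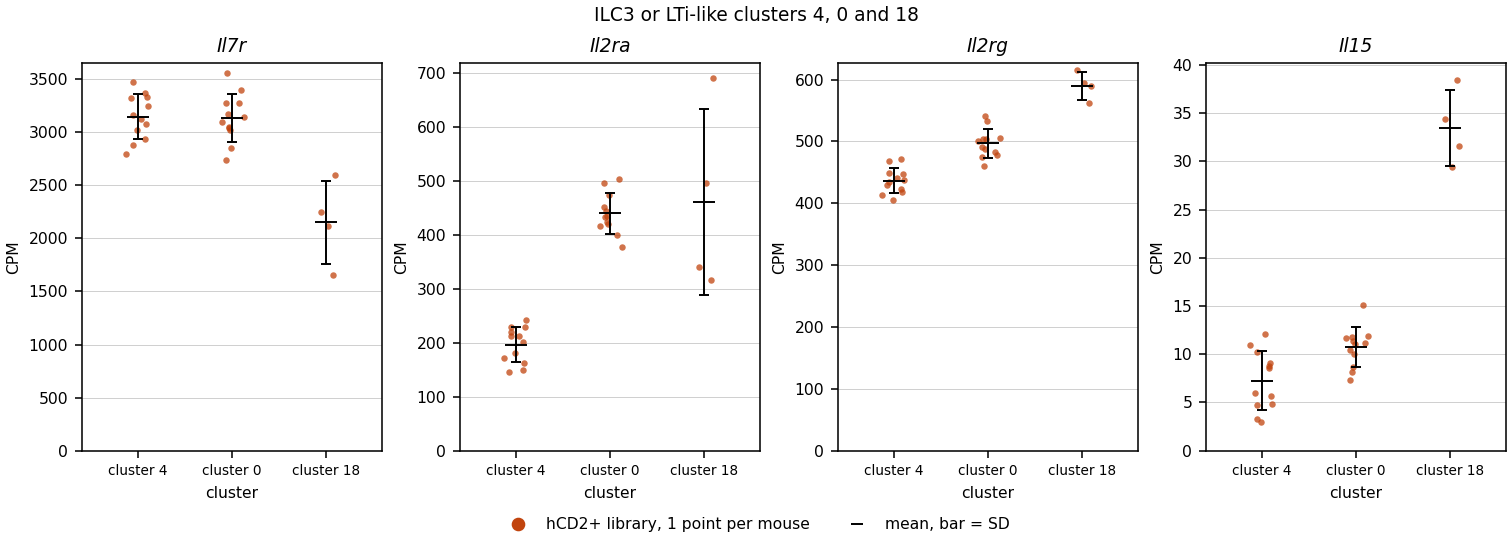
Il7r, Il2ra, Il2rg and Il15 in CPM in ILC3 or LTi-like clusters 4, 0 and 18 of the hCD2+ library, with 1 point per mouse and the mean ± SD in black. Il2ra in cluster 4 stays between 146 and 242 CPM, below every mouse of cluster 0 (377 to 503 CPM), and Il7r is lowest in cluster 18.

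T cell-like cells of the hCD2- library held cluster 15 (led by Arhgdig, Bcat1 and Crtam, with Gzmb and Xcl1 among its top 10 genes), whose receptor profile differed from the other T cells. It carried 88.5 CPM of Foxp3, the transcription factor of regulatory T cells, and reached 10 cells in 8 mice. It was a mix: at the finer clustering, looked at after its values were seen, its 159 hCD2- cells fell into 95 and 64. The 95 cells held 235 CPM of Foxp3 and 6.20 CPM of Gzmb, a cytotoxic granule enzyme, and the 64 cells no Foxp3 count (which allows up to 1.25 CPM) and 184 CPM of Gzmb. Il7r was at 277 CPM in the 95 Foxp3 cells and 9.17 CPM in the 64 Gzmb cells, and Il2ra at 449 CPM in the Foxp3 cells and 101 CPM in the Gzmb cells, pooled and with no test. The tests that follow are of the whole cluster. Il7r was at 48.99, 80.6 and 237 CPM in cluster 15, against 409, 585 and 736 CPM in the other T cell-like cells, lower in 8 of 8 mice without overlap (log2 fold change -2.49 ± 0.21, adjusted p = 3.2e-10). Il2ra was at 138, 231 and 301 CPM in cluster 15, against 0, 13.6 and 164 CPM in the others, higher in 8 of 8 with overlap (log2 fold change 2.53 ± 0.52, adjusted p = 2.0e-04). Il15ra was higher in 7 of 8 (log2 fold change 1.43 ± 0.35, adjusted p = 0.0014). Il2rb was higher in 6 of 8 (log2 fold change 0.40 ± 0.13, adjusted p = 0.015), lost with the mouse as a block (log2 fold change 0.28, adjusted p = 0.072) and without the low-count filter (log2 fold change 0.30, adjusted p = 0.081). Il2rg (log2 fold change -0.14 ± 0.08, adjusted p = 0.12) and Crlf2 (log2 fold change 0.46 ± 0.20, adjusted p = 0.059) did not pass. Of 6 tested genes 4 were called, beside 52.4% of all genes. Other T clusters are given as values without a test. Cluster 5 (with Cd8b1) held a median of 147 CPM of Il2rb in hCD2- mice, and cluster 9 (with Cd40lg) 8.002 CPM.

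**Figure D5:**
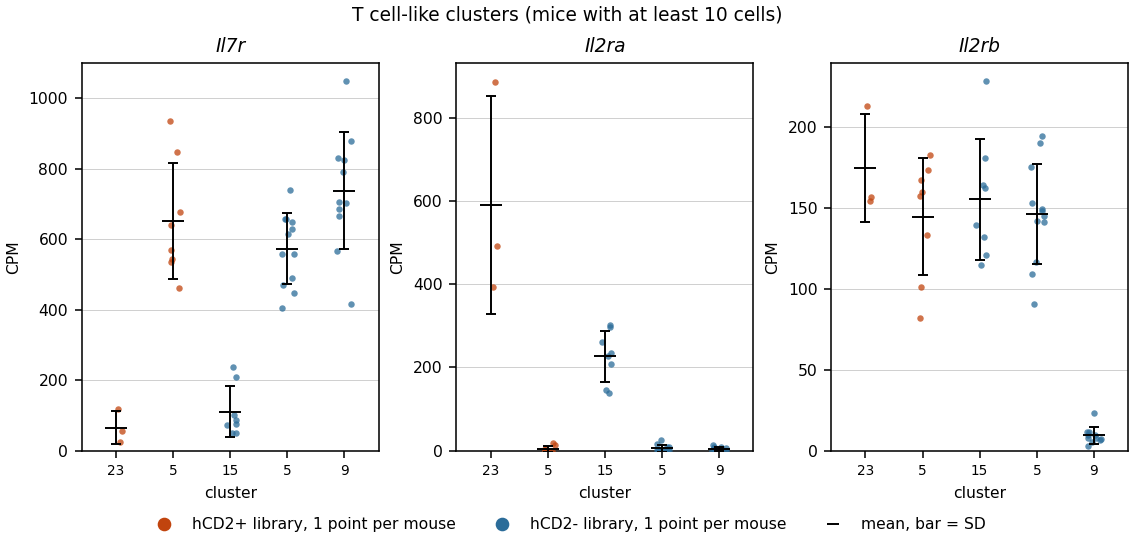
Il7r, Il2ra and Il2rb in CPM in T cell-like clusters, with 1 point per mouse with at least 10 cells, hCD2+ columns left of hCD2- columns and the mean ± SD in black. Cluster 15 of the hCD2- library ranges from 138 to 301 CPM of Il2ra and 48.99 to 237 CPM of Il7r.

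The hCD2+ and hCD2- fractions were compared within each class that had enough mice of both. In ILC3 or LTi-like cells edgeR called 0 of the 7 genes (2 at an unadjusted p under 0.05, and 1 called by DESeq2), beside 4.37% of all genes. Il7r was at 2674, 3082 and 3331 CPM in hCD2+ cells (12 mice), against 2230.2, 2787 and 3222 CPM in hCD2- cells (11 mice; log2 fold change 0.07 ± 0.05, adjusted p = 0.54), with overlap. Il2ra was at 337, 379 and 445 CPM in hCD2+ cells, against 173, 297 and 484 CPM in hCD2- cells (log2 fold change 0.30 ± 0.12, adjusted p = 0.17; log2 fold change 0.35, adjusted p = 0.049 with the mouse as a block, 10 of 11 mice). Il2rb was at 231, 262 and 298 CPM in hCD2+ cells, against 233, 289 and 393 CPM in hCD2- cells (log2 fold change -0.21 ± 0.08, adjusted p = 0.13; called by DESeq2, log2 fold change -0.22, adjusted p = 0.041). Every range overlapped. Over all genes, 183 were higher and 250 lower in hCD2+ ILC3 or LTi-like cells, against 219 and 463 with DESeq2 and 258 and 176 without the low-count filter.

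In CCR7 migratory DC-like cells Il15ra was the only gene of the 6 tested to be called, beside 17.7% of all genes. It was at 237, 281 and 376 CPM in hCD2+ cells, against 173, 227 and 306 CPM in hCD2- cells, higher in 11 of 12 mice with overlap (log2 fold change 0.28 ± 0.09, adjusted p = 0.027). Cluster 11, the cluster high in Il15ra, made up 37.5% of hCD2+ and 15.4% of hCD2- CCR7 cells. With the clusters drawn in equal proportion in both fractions, its difference was not called (log2 fold change -0.05, adjusted p = 0.85). Nor was it without the low-count filter (log2 fold change 0.27, adjusted p = 0.051). Il15 (log2 fold change 0.01 ± 0.10, adjusted p = 0.97), Il7r (log2 fold change -0.05 ± 0.08, adjusted p = 0.71), Il2ra (log2 fold change 0.11 ± 0.19, adjusted p = 0.76), Il2rg (log2 fold change -0.04 ± 0.07, adjusted p = 0.74) and Crlf2 (log2 fold change 0.24 ± 0.15, adjusted p = 0.27) did not pass.

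In cDC2-like cells Il7r was at 15.7, 58.2 and 169 CPM in hCD2+ cells (7 mice), against 22.7, 33.2 and 65.6 CPM in hCD2- cells (12 mice), higher in 5 of 7 with overlap (log2 fold change 1.03 ± 0.31, adjusted p = 0.028). Of 4 tested genes only Il7r was called, beside 12.9% of all genes (1167 genes, 471 with the mouse as a block). The call was lost with the block (log2 fold change 0.85, adjusted p = 0.086) and with an equal mix of clusters (log2 fold change 0.71, adjusted p = 0.49), and held at a finer clustering (log2 fold change 1.63, adjusted p = 9.5e-06). Markers of other classes moved with it: the ILC3 or LTi list lay at 101 to 514 CPM in hCD2+ and 57.9 to 171 CPM in hCD2- mice, and the T cell list at 21.3 to 487 CPM in hCD2+ and 36.3 to 139 CPM in hCD2- mice. All 10 ILC3 or LTi and all 8 T cell markers had counts in both. Their part in the Il7r difference was not tested. Cluster 17 made up 36.8% of hCD2+ and 14.9% of hCD2- cDC2-like cells. Il15, Il2rg and Crlf2 did not pass. Il2ra and Il2rb were too low to be tested here. Il2ra was at 2.13, 9.86 and 57.2 CPM in hCD2+ cells, against 0, 0.481 and 5.71 CPM in hCD2- cells, higher in 7 of 7 mice with overlap. Il2rb was at 2.13, 8.22 and 27.2 CPM in hCD2+ cells, against 0.328, 1.77 and 6.71 CPM in hCD2- cells, higher in 7 of 7 with overlap.

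In T cell-like cells 4 of 6 tested genes were called, beside 42.6% of all genes. Il2ra was at 22.6, 417 and 771 CPM in hCD2+ cells (11 mice), against 31.3, 52.2 and 187 CPM in hCD2- cells (12 mice), higher in 10 of 11 with overlap (log2 fold change 2.37 ± 0.41, adjusted p = 7.7e-05). Il7r was at 89.5, 208 and 574 CPM in hCD2+ cells, against 344, 496 and 607 CPM in hCD2- cells, lower in 8 of 11 (log2 fold change -0.66 ± 0.25, adjusted p = 0.037). Il2rg was lower in 11 of 11 (log2 fold change -0.30 ± 0.07, adjusted p = 0.0016) and Crlf2 higher in 9 of 11 (log2 fold change 0.50 ± 0.15, adjusted p = 0.011). The mix of clusters differed: cluster 23, led by Ccl20 and Plekhd1 and high in the proliferation gene Mki67, made up 21.6% of hCD2+ and 3.29% of hCD2- T cell-like cells. It held pooled levels of 774 CPM Il2ra and 45.3 CPM Il7r in hCD2+ cells. With an equal mix of clusters none of these calls held: Il2ra (log2 fold change 1.19, adjusted p = 0.2), Il7r (log2 fold change -0.16, adjusted p = 0.74), Il2rg (log2 fold change -0.08, adjusted p = 0.69) and Crlf2 (log2 fold change 0.49, adjusted p = 0.15). That draw kept 313 hCD2+ and 320 hCD2- cells, against 358 and 1004 in the main test, and called 128 genes, against 3630. Whether the mix or the smaller number of cells lost these calls was not tested. With thinned cells Il7r (log2 fold change -0.13, adjusted p = 0.68) and Il2rg (log2 fold change -0.16, adjusted p = 0.41) were also no longer called. With at least 20 cells per mouse Il7r was not called (log2 fold change -0.49, adjusted p = 0.12).

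Cluster 8 (269 hCD2+ and 160 hCD2- cells, led by Tcerg1l, Arhgap44 and Dsc2) took no class name and was large in both fractions. Its best marker list was that of Prdm16 or Aire DC-like cells, but only 2 of the 10 markers, Aire and Trp63, were elevated. A name needed at least 3. Of its 4 tested genes 0 were called with edgeR (1 at an unadjusted p under 0.05, and 0 called by DESeq2), beside 1.6% of all genes. Il7r was at 68.9, 177 and 267 CPM in hCD2+ cells (12 mice), against 55.4, 116 and 185 CPM in hCD2- cells (8 mice), with overlap (log2 fold change 0.56 ± 0.19, adjusted p = 0.17; log2 fold change 0.69, adjusted p = 0.036 with the mouse as a block, higher in 7 of 8). Il15 was at 28.1, 55.9 and 83.3 CPM in hCD2+ and 21.4, 58.9 and 75.5 CPM in hCD2- cells (log2 fold change 0.04 ± 0.20, adjusted p = 0.96). Prdm16 or Aire DC-like cells could not be compared between fractions, as no mouse had 10 hCD2- cells of the class.

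Whether the fraction difference of a gene was itself different between CCR7 migratory DC-like and ILC3 or LTi-like cells was tested with an interaction term. The fit used all sums with at least 10 cells and no block on mouse, and 11 mice had all 4 sums. With edgeR 0 of the 7 genes were called (1, Il2rb, at an unadjusted p under 0.05), beside 3.64% of all genes. The difference of the log2 differences, CCR7 minus ILC3 or LTi-like, was -0.23 ± 0.23 for Il2ra (adjusted p = 0.69), 0.26 ± 0.27 for Il15ra (adjusted p = 0.71) and -0.15 ± 0.10 for Il7r (adjusted p = 0.47). With the mouse as a block, on the 11 mice with all 4 sums, the smallest adjusted p of these genes was 0.33 (Il7r, -0.16 ± 0.08). A difference between these 2 classes was not detectable with these mice, which does not show that they respond alike.

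The 28 other genes of the pathway comprised 3 further gamma chain partners (Il4ra, Il9r, Il21r), 6 ligands, 9 JAK kinases and STAT factors and 10 genes that STAT5 is known to induce. Each count of calls stands beside the share of all genes called in that comparison, in either direction. The ligands Il2, Il4, Il7, Il9, Il21 and Tslp were too low to be tested, except for 1 of them in cluster 8 and 1 in the comparison of ILC3 clusters 0 and 18, neither called. In CCR7 over cDC2-like cells, 8 of 9 JAK and STAT genes were higher and none lower (median log2 fold change 1.19, against -0.05 over all genes, of which 78.4% were called). Of the STAT5-induced genes 7 of 10 were higher and 2 lower there (median 1.00), and both tested gamma chain partners were higher. Socs2, a feedback inhibitor of cytokine signalling, had the largest rise, at 649 ± 76.7 CPM in CCR7 cells, against 13.9 ± 13.9 CPM in cDC2-like cells (log2 fold change 5.88 ± 0.27, adjusted p = 4.2e-18). Myc, a growth regulator, had the largest fall, at 2.92 ± 4.77 CPM in CCR7 cells, against 26.9 ± 7.98 CPM in cDC2-like cells (log2 fold change -2.86 ± 0.33, adjusted p = 7.0e-09).

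In CCR7 cluster 11 over cluster 1, 1 of 8 tested STAT5-induced genes was higher and 5 lower in hCD2- cells (median -0.74, against -0.03 over all genes, of which 40.4% were called). In hCD2+ cells 0 of 6 were higher and 3 lower (median -0.76, against -0.0032), near the 45.1% of all genes called. Socs3, a feedback inhibitor, was at 0.225 ± 0.502 CPM in cluster 11, against 46.1 ± 18.2 CPM in cluster 1 of the hCD2- library (log2 fold change -6.73 ± 0.74, adjusted p = 1.5e-07). In the hCD2+ library it was at 7.10 ± 8.20 CPM in cluster 11, against 45.6 ± 24.2 CPM in cluster 1 (log2 fold change -3.21 ± 0.45, adjusted p = 1.2e-06). Il4ra, which pairs with the gamma chain to bind IL-4, was higher in cluster 11 than in cluster 1 in both libraries. In hCD2+ cells it was at 164 ± 30.1 CPM in cluster 11, against 72.2 ± 14.8 CPM in cluster 1 (log2 fold change 1.15 ± 0.12, adjusted p = 1.0e-08). In hCD2- cells it was at 176 ± 17.6 CPM in cluster 11, against 92.1 ± 16.5 CPM in cluster 1 (log2 fold change 1.00 ± 0.12, adjusted p = 7.3e-07). In cluster 13 over CCR7 cells, Il21r, the IL-21 receptor chain, was at 21.6 ± 12.5 CPM in cluster 13, against 243 ± 52.2 CPM in CCR7 cells (log2 fold change -3.57 ± 0.22, adjusted p = 1.8e-12). Il9r was at 22.1 ± 8.97 CPM in cluster 13, against 7.33 ± 5.85 CPM in CCR7 cells (log2 fold change 1.77 ± 0.31, adjusted p = 3.4e-05). There 2 of 6 tested STAT5-induced genes were higher and 3 lower (median 0.0034, against 0.01, with 49.9% of all genes called).

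In the Aire-high over the Prdm16-high cluster all 3 gamma chain partners were higher (median 4.71, against -0.03 over all genes, of which 68.3% were called). Il21r was at 93.5 ± 44.1 CPM in the Aire-high cluster, against 1.89 ± 1.70 CPM in the Prdm16-high cluster (log2 fold change 5.61 ± 0.29, adjusted p = 6.7e-17). Of 8 tested JAK and STAT genes 5 were higher and 2 lower, with the largest fall in Jak2, a kinase used by the TSLP receptor among others (log2 fold change -0.66 ± 0.15, adjusted p = 3.6e-04). Prdm16 or Aire DC-like over CCR7 cells had 0 of 9 JAK and STAT genes higher and 7 lower (median -0.57, against 0.07), a share near the 75.2% of all genes called. Socs3 was at 2.04 ± 1.62 CPM in Prdm16 or Aire cells, against 30.2 ± 14.3 CPM in CCR7 cells (log2 fold change -4.19 ± 0.31, adjusted p = 4.7e-13). Prdm16 or Aire DC-like over ILC3 or LTi-like cells had 4 of 9 higher and 3 lower (median 0.11, against -0.03), where 82.4% of all genes were called. Socs2 was at 209 ± 24.02 CPM in Prdm16 or Aire cells, against 6.30 ± 1.91 CPM in ILC3 or LTi-like cells (log2 fold change 5.17 ± 0.11, adjusted p = 2.7e-26). Socs3 was at 2.04 ± 1.62 CPM in Prdm16 or Aire cells, against 155 ± 11.5 CPM in ILC3 or LTi-like cells (log2 fold change -6.04 ± 0.15, adjusted p = 1.9e-24). In cDC1-like over cDC2-like cells 2 of 9 JAK and STAT genes were higher and 4 lower, beside 59.7% of all genes called, and both tested gamma chain partners were lower. Il21r was at 10.5 ± 7.21 CPM in cDC1-like cells, against 137 ± 26.9 CPM in cDC2-like cells (log2 fold change -3.80 ± 0.23, adjusted p = 2.2e-14).

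Among lymphoid cells of the hCD2- fraction, 6 of 9 tested STAT5-induced genes were higher and 1 lower in ILC3 or LTi-like over T cell-like cells (median 1.42, against -0.03 over all genes, of which 65.5% were called). Over NK or ILC1-like cells 5 of 9 were higher and 3 lower (median 0.61, against -0.02, with 56.9% of all genes called). NK or ILC1-like over T cell-like cells had 7 of 9 higher and 1 lower (median 0.86, against -0.01, with 49.1% called). Of 9 JAK and STAT genes 4 were higher and 3 lower in that comparison. Stat5a had the largest fall, at 40.9 ± 13.1 CPM in NK or ILC1-like cells, against 161 ± 24.8 CPM in T cell-like cells (log2 fold change -1.96 ± 0.13, adjusted p = 7.3e-14). Cish, an inhibitor induced by STAT5, was at 54.2 ± 23.2 CPM in ILC3 or LTi-like, against 9.05 ± 5.32 CPM in NK or ILC1-like cells (log2 fold change 2.63 ± 0.25, adjusted p = 1.2e-10). Myc was at 9.39 ± 9.48 CPM in ILC3 or LTi-like cells, against 127 ± 31.2 CPM in NK or ILC1-like cells (log2 fold change -3.67 ± 0.28, adjusted p = 1.6e-12). Socs3 was higher than in T cells both in ILC3 or LTi-like (log2 fold change 2.82 ± 0.13, adjusted p = 1.2e-18) and in NK or ILC1-like cells (log2 fold change 2.14 ± 0.11, adjusted p = 5.2e-17). In the mixed cluster 15 of T cell-like cells 4 of 10 STAT5-induced genes were higher and 2 lower than in other T cells (median 0.52, against -0.01, with 52.4% of all genes called). Cish was at 43.98 ± 21.3 CPM in cluster 15, against 5.71 ± 3.68 CPM in the other T cells (log2 fold change 2.78 ± 0.31, adjusted p = 3.0e-08). Bcl2, a survival gene, was at 245 ± 165 CPM in cluster 15, against 435 ± 104 CPM in the other T cells (log2 fold change -0.90 ± 0.22, adjusted p = 0.0013).

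In the Il2ra-low ILC3 cluster 4, 1 of 8 tested STAT5-induced genes was higher and 5 lower than in cluster 0 (median -0.31, against -0.01 over all genes, of which 30.9% were called). Cish was at 29.7 ± 12.6 CPM in cluster 4, against 63.2 ± 8.83 CPM in cluster 0, with no overlap of mice (log2 fold change -1.02 ± 0.14, adjusted p = 1.5e-06). Il9r had the largest rise, at 35.9 ± 13.3 CPM in cluster 4, against 9.17 ± 2.22 CPM in cluster 0 (log2 fold change 1.98 ± 0.17, adjusted p = 1.2e-10). Between ILC3 clusters 0 and 18, 3 of 9 JAK and STAT genes were lower in cluster 0 and none higher, beside 8.82% of all genes called.

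Between fractions the number of pathway genes called differed by class, as did the share of all genes called. In ILC3 or LTi-like cells Socs3 alone was called of 22 tested, beside 4.37% of all genes, at 155 ± 11.5 CPM in hCD2+ and 203 ± 40.3 CPM in hCD2- cells (log2 fold change -0.45 ± 0.08, adjusted p = 1.0e-03). In CCR7 cells it was Pim1, a kinase induced by STAT5, of 20 tested, beside 17.7% of all genes (log2 fold change -0.23 ± 0.07, adjusted p = 0.021). In cluster 8, where 19 were tested, the smallest adjusted p was 0.2 (Il4ra, log2 fold change -0.38 ± 0.14). In cDC2-like cells 2 STAT5-induced genes were higher, with Bcl2 at 77.3 ± 45.8 CPM in hCD2+ cells, against 22.3 ± 9.13 CPM in hCD2- cells (log2 fold change 1.79 ± 0.29, adjusted p = 2.0e-04). In that class 1 JAK or STAT gene was lower, so that 3 of 20 were called, beside 12.9% of all genes. In T cell-like cells 5 of 9 JAK and STAT genes and both tested gamma chain partners were lower, and 3 of 10 STAT5-induced genes were higher and 2 lower, beside 42.6% of all genes called.

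Il15 and Il15ra transcripts were found in the same cells somewhat more often than independent detection gives. With cells thinned to 5000 UMIs, both were seen in 47.6% of hCD2+ CCR7 cells, against 43.1% from the product of the single shares (above it in 9 of 12 mice). In the hCD2- library they were seen in 39.3% of CCR7 cells, against a product of 33.6% (12 of 12 mice). Both genes differ between clusters 11 and 1 in the same direction. Il2ra and Il2rb, which form part of 1 receptor, were seen together in 5.56% of hCD2- T cell-like cells, against a product of 3.08% (12 of 12 mice). The levels of both genes also varied between the T cell-like clusters, and the part of this in the joint share was not tested. Il7r and Il2rg, the 2 IL-7 receptor chains, were seen together in 24.8% of hCD2+ CCR7 cells, against a product of 24.4%.

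Over the 13 class and library means with at least 3 mice, which share 2 libraries, 12 mice and the clustering, log2 levels of the genes were correlated as a description. Il7r and Il2rg had similar profiles over classes (r = 0.91), as did Il15 and Il15ra (r = 0.74), while Crlf2 ran opposite to Il15ra (r = -0.84). In Il15ra the CCR7 means of both libraries (283 and 233 CPM) stood apart from all other means (0.855 to 20.3 CPM). The CCR7 means were also the lowest in Crlf2 and the highest in Il15. How far CCR7 cells alone make these correlations was not tested. Of 11011 genes compared, the 3 with the pattern most like Il7r were Cbx7 (0.98), Phf1 (0.98), Helz (0.96), with r in brackets. For Il2ra they were Rhot2 (0.93), Lta (0.92), Cdk6 (0.90). For Il2rb they were Rph3al (0.98), Apol7e (0.98), Znrf3 (0.98). For Il2rg they were Gm614 (0.96), Fam107b (0.94), Lmbr1 (0.93). For Crlf2 they were Ndufb10 (0.97), Rnf227 (0.97), Micos10 (0.96). For Il15 they were Lima1 (0.96), Arhgef40 (0.95), Asl (0.95). For Il15ra they were Hsf2 (0.96), Sinhcaf (0.96), Bcl2l1 (0.96).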

How the data were processed

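Single-cell gene expression (10x 3' chemistry) and hashtag counts were measured in 1 library per sorted fraction. The authors deposited UMI counts per gene and droplet, unnormalized. Cell Ranger 8.0.1 and mm10 are named per the submitters' processing notes, and the authors' hashtag table gives each cell's hashtag call with a probability, a fraction from 0 to 1. The tool that made those calls is not given in the sources used here. The genes and lists were chosen with earlier results of these data known.

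Kept cells carried 1 hashtag, a minimum of 500 genes and no more than 10% of their UMIs from mitochondria, which removes doublets between mice but not within one. Clusters with markers of several classes stayed unnamed. The libraries shared 9 kept barcodes (0.127% of hCD2+ and 0.189% of hCD2- cells), 0 of them with the same mouse. Clustering used scanpy 1.11.5 (2000 variable genes, 30 components, 15 neighbours, Leiden 1.0 with leidenalg 0.10.2) without the 7 genes and 28 pathway genes. Names needed at least 3 markers at 2-fold in at least 10% of cells, and these naming rules were set after clustering. Clusters come from other genes of the same cells, so p-values between them are conditional on the clusters. The free-RNA bound came from droplets of 10 to 100 UMIs.

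Counts were summed per mouse, class and fraction (at least 10 cells, at least 3 mice) and tested two-sided with edgeR 4.0.16 (TMM, quasi-likelihood, Benjamini-Hochberg over all genes passing its low-count filter), first on simulated data: with 100 genes changed by a log2 fold of 1, it recovered 98 for the CCR7 fraction comparison (8032 genes), 86 for CCR7 cluster 11 over 1 (8198 genes) and 93 for the cDC2-like fraction comparison (8940 genes). Alternatives were RLE scaling, no low-count filter, DESeq2 1.42.0, the mouse as a block, thinning, at least 20 cells per mouse, Leiden 2.0, mice left out and, added after seeing the data, an equal mix of clusters. That mix was drawn over all mice together, so it was not made equal within each mouse. The hashtags pair the fractions by animal: same-mouse deviations correlated at 0.264 to 0.673 (6284 genes, 12 of 12 pairs above 0.1). The named genes were the 7 members, the pathway gene with the largest called rise and fall in each comparison, and the 3 genes most like each member. Prdm16 or Aire DC-like cells gave no fraction comparison and no interaction. Intervals and floors (3 counts) cover counting error only.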

Additional observations from a re-analysis of the deposited data

Results flagged for a closer look

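Among 50 groups of 4 to 10 mice examined, 9 held a mouse set apart from the rest by Dixon's gap criterion. For normally distributed values chance gives this in about 1 in 20 groups. Low counts need not be so distributed, so the number that chance gives here is not known. All 9 rest on 10 to 25 cells of that mouse. In IL-2 receptor chains, the mouse standing highest was seen in Il2ra of hCD2+ CCR7 cluster 11 (143 CPM from 47 counts in 12 cells, the other mice at 2.25 to 56.7 CPM), Il2ra of hCD2- cluster 8 (59.3 CPM from 22 counts in 14 cells, the other mice at 0 to 22.6 CPM), Il2rb of hCD2+ cluster 11 (24.4 CPM from 8 counts in 10 cells, the other mice at 0 to 9.80 CPM), Il2rb of hCD2+ cluster 13 (35.3 CPM from 30 counts in 25 cells, the other mice at 0 to 5.05 CPM) and Il2rb of hCD2- pDC-like cells (65.2 CPM from 24 counts in 14 cells, the other mice at 0 to 3.88 CPM). In Crlf2 the mouse standing highest was seen in hCD2+ cluster 11 (40.6 CPM from 18 counts in 13 cells, the other mice at 7.90 to 20.3 CPM) and hCD2- T cell-like cluster 15 (60.9 CPM from 20 counts in 13 cells, the other mice at 15.1 to 31.9 CPM). The mouse standing lowest was seen in Crlf2 of hCD2+ cDC2-like cells (20.1 CPM from 10 counts in 16 cells, the other mice at 35.4 to 42.7 CPM) and Il2rg of hCD2- pDC-like cells (81.5 CPM from 21 counts in 11 cells, the other mice at 142 to 161 CPM). The Il2ra value of cluster 11 is the 1 that made its range overlap cluster 1 in the hCD2+ library. The cause of these values was not tested.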

How the results depend on the processing

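Of the 63 calls on the 7 genes in 117 tests, 51 held under every alternative run and 12 were lost under at least 1, each named above with its value. The member tests gave 704 values under other settings, of which 645 kept direction and side of the threshold, 18 lost a call, 14 gained one and 27 changed sign. Leaving out a mouse in the 2 comparisons with 4 or 5 mice in an arm kept 153 of 156, gained 1 and changed the sign of 2. No call turned round except Il15ra in the CCR7 fraction comparison. With the mouse as a block, the calls that changed are those given above and no other call changed. The number of genes called moved by over 1.5 times in these cases. Thinning, which leaves fewer counts and fewer genes tested, gave 126 genes for the fraction comparison in ILC3 or LTi-like cells (433 unthinned), 568 in CCR7 cells (1443), 273 in cDC2-like cells (1167), 407 in T cell-like cells (3630) and 28 in cluster 8 (105). It gave 5510 for Prdm16 or Aire DC-like over ILC3 or LTi-like cells (8912), 2991 over CCR7 cells (7050), 1442 for ILC3 or LTi-like over NK or ILC1-like (3819), 2291 over T cell-like (5028) and 1833 for NK or ILC1-like over T cell-like cells (3926). It gave 3396 for CCR7 over cDC2-like (7227), 1986 for cDC1-like over cDC2-like (5281), 2102 for Aire-high over Prdm16-high (5435), 325 for ILC3 cluster 0 over 18 (929), 1190 for T cluster 15 over other T cells (3979), 1238 for CCR7 cluster 11 over 1 in hCD2- (3394) and 807 in hCD2+ cells (2778), 1172 for cluster 13 (3564) and 1429 for ILC3 cluster 4 over 0 (2861). An equal mix of clusters, with fewer cells, gave 83 genes in ILC3 or LTi-like, 586 in CCR7, 74 in cDC2-like and 128 in T cell-like cells. DESeq2 gave 682 in ILC3 or LTi-like cells and 159 in cluster 8, Leiden 2.0 gave 191 in ILC3 or LTi-like and 1763 in cDC2-like cells, and at least 20 cells per mouse gave 30 in cluster 8. With the mouse as a block there were 471 genes in cDC2-like cells and 367 for ILC3 cluster 0 over 18. Without the low-count filter there were 5926 for ILC3 or LTi-like over NK or ILC1-like, 8153 over T cell-like, 5948 for NK or ILC1-like over T cell-like and 8255 for Aire-high over Prdm16-high cells. Leaving out a mouse gave 601 to 933 genes for ILC3 cluster 0 over 18 (lowest without mouse 9) and 2924 to 3393 for CCR7 cluster 11 over 1. The cause was not tested where none is given. No value that changed sign passed the test, and only Il15ra in the CCR7 fraction comparison was called before it did. In the ILC3 or LTi-like fraction comparison Il2rg went to 0.025 without the filter, 0.00070 thinned and 0.030 with an equal mix, and Il15ra to 0.040 without the filter and 0.22 with at least 20 cells. In the CCR7 one, an equal mix gave 0.047 for Il7r, 0.012 for Il2rg, -0.22 for Il15 and -0.047 for Il15ra, and no filter gave -0.0037 for Il15. In T cell-like cells an equal mix gave -0.14 for Il2rb. Il2rg in NK or ILC1-like over T cell-like cells went to -0.011 without the filter, -0.035 thinned and -0.0073 at Leiden 2.0. Il2ra in ILC3 cluster 0 over 18 went to 0.14 with at least 20 cells and 0.15 without mouse 4 (range -0.21 to 0.15 over mice left out), and Il2rg in T cluster 15 to 0.091 thinned. Il2rg in CCR7 cluster 11 over 1 of hCD2- cells went to -0.022 without the filter, -0.45 thinned and -0.054 without mouse 1 (range -0.054 to 0.16), and in hCD2+ cells to 0.21 thinned, where Crlf2 went to -0.36 with at least 20 cells. In cluster 8 Il2rg went to 0.000335 with RLE, 0.020 without the filter, 0.0038 with DESeq2 and 0.069 with the block, and Il15 to -0.016 with the block. Il7r in ILC3 cluster 4 over 0 went to -0.0026 without the filter, and the interaction of Il2rg to 0.010 with RLE. The stricter cell minimum left too few mice for the cDC2-like fraction comparison, T cluster 15 and hCD2- CCR7 clusters and was not run there.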
